A study of Mus musculus with 4 samples.

Results

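The 37 genes described here act in mitosis and cytokinesis, the steps in which a cell divides its copied chromosomes and then its cytoplasm. They were chosen by name, with earlier results of these data known, and sorted by step. Of these genes, 14 act in mitotic entry and spindle assembly, and 7 at the spindle midzone and in cytokinesis. The other 16 act at the kinetochore, in the spindle checkpoint or at mitotic exit. All 37 had at least 1 probe on the array through a RefSeq accession, 54 probes in all, and each gene was read from its brightest probe. Of the 37 genes, 36 passed the filter on dim probes, under which the scanner software had to flag a probe as well above background on each array of siErbB4, of siScr or of both, and were tested among 20726 features, of which 14995 were named genes. Cenpf, which encodes a kinetochore protein, did not pass.

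RNA was measured in cardiomyocytes grown from CGR8, a mouse embryonic stem cell line. For 48 hours the cells of 2 samples had received an interfering RNA that targets Erbb4 (siErbB4), and those of 2 samples a scrambled RNA (siScr). All 4 samples shared the cell line, the transfection agent and a medium with 2% serum, and 1 Agilent 1-colour array was used per sample. The replicate numbers 1 and 2 come from the sample titles. The labels do not say what a number stands for, nor whether each sample had its own culture, so a p-value here covers the spread among the 4 samples alone. The labels contradict themselves in places: in the description field both siErbB4 samples are said to have had the scrambled RNA, and ErbB5 stands in the source field of siErbB4 replicate 2. They also name 2 lengths of culture, 6 and 24 hours, and tie neither to a sample. The titles and the transfection field, which match each other, were followed.

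A cell enters mitosis when cyclin-dependent kinase 1, bound to cyclin A or B, is switched on by the CDC25 phosphatases, and the Polo and Aurora kinases then drive spindle assembly. The kinetochore ties each chromosome to spindle fibres, and the checkpoint holds the anaphase-promoting complex, a ubiquitin ligase, inactive until all chromosomes are attached. The central spindle then directs the small GTPase RhoA to build the contractile ring that cleaves the cell. Heart muscle cells of the mouse divide in the embryo and largely stop after birth, often with rounds of nuclear division without cytokinesis, so transcripts of these genes are widely used as a readout of cycling in cardiac cultures.

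Levels are given as processed signals, the background-subtracted brightness of a probe before scaling. They do not compare genes, and small differences between arrays can change sign once scaled. Differences are on the log2 scale after each array's 75th percentile was subtracted, with the standard error (SE) of limma's linear model. Folds come from the same scaled values. The arrays had a 75th percentile of 878 to 989 in processed signal, 64.8% to 68.5% of probes were well above background, and 0 spots were saturated. All 4 arrays lay on 1 slide. The arrays of replicate 2 held the first 2 positions and those of replicate 1 the other two, so the replicate number and the position on the slide cannot be told apart. The 3 bright spike-in RNAs differed by 0.053 to 0.099 on the log2 scale between replicates 2 and 1. The 1 probe for Erbb4 had processed signals of 15.0 and 2.83 on siErbB4 arrays 2 and 1, against 11.9 and 9.02 on siScr arrays 2 and 1, and only siErbB4 array 2 was well above background. Its log2 difference between siErbB4 and siScr was -0.68 (SE 0.90, 95% interval -3.22 to 1.86) in a fit of all 32388 unfiltered features, so these signals do not check the knockdown. Of the listed cell type markers, 24 of 24 for cardiomyocytes passed the filter, as did 23 of 23 for pluripotent cells and 22 of 24 for fibroblasts. Tnnt2, cardiac troponin T, had processed signals of 189854 and 222701 on siErbB4 arrays 2 and 1, against 204279 and 219296 on siScr arrays 2 and 1.

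The promoters of the mitosis genes carry a sequence feature for which this family is known. A cell cycle genes homology region (CHR, letters TTTGAA) is the element through which the DREAM and MuvB complexes act at late cell cycle genes in human and mouse cells, often beside several CCAAT boxes (letters CCAAT), which the factor NF-Y binds. RefSeq promoter sequences (assembly GRCm38.p6, 250 bases before to 50 after the annotated start) were matched to 30 of the 37 genes; those of Foxm1, Ccna2, Cdc25c, Tpx2, Aurkb, Incenp and Kif20a were not used here. On either strand, TTTGAA was found in 23 of the 30 genes (76.7%), beside 5466 of all 27025 genes in the table (20.2%). CCAAT was found in 23 of the 30 (76.7%), beside 41.1% of all genes. Both motifs were found in 20 of the 30 (66.7%), beside 8.97% of all genes. No match overlaps another in the windows printed here, and a match is not evidence that a factor binds there.

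The 120 bases before the start are shown for 5 genes with both motifs, taken from the 3 steps, and for 1 gene with neither; capitals mark the motifs, read as TTTGAA or CCAAT on the printed strand and as TTCAAA or ATTGG on the other.
Cdk1, the mitotic kinase, chr10:69352913-69353032 (minus strand), has CHR matches 71 and 15 bases before the start and CCAAT matches at 80 and 48.
Cdk1: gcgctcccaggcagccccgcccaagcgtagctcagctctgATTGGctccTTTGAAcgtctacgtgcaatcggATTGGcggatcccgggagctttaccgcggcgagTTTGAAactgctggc
Top2a, the topoisomerase that untangles sister chromatids, chr11:99024190-99024309 (minus strand), has a CHR match at 23 bases and CCAAT matches at 98, 78 and 58.
Top2a: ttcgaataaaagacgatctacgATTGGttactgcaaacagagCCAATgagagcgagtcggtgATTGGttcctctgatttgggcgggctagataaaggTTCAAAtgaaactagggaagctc
Cdc20, which activates the anaphase-promoting complex, chr4:118437344-118437463 (minus strand), has a CHR match at 18 bases and CCAAT matches at 53 and 8.
Cdc20: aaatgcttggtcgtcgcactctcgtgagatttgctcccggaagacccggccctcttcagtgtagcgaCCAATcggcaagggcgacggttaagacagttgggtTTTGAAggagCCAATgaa
Ube2c, a ubiquitin-conjugating enzyme of that complex, chr2:164769809-164769928 (plus strand), has a CHR match at 29 bases and CCAAT matches at 88 and 57.
Ube2c: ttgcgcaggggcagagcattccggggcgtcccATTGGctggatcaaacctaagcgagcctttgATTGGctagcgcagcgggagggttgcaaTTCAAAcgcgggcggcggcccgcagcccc
Prc1, which bundles midzone microtubules, chr7:80294356-80294475 (plus strand), has a CHR match at 30 bases and a CCAAT match at 62, at 1 of its 2 annotated starts.
Prc1: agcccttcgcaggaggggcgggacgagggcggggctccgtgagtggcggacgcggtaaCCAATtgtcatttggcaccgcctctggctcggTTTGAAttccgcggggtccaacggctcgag
Mad2l1, a checkpoint protein, chr6:66535101-66535220 (plus strand), has neither motif in its 300 bases.
Mad2l1: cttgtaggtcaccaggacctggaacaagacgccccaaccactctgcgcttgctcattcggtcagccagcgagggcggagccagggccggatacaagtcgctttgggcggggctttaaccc

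**Figure D1:**
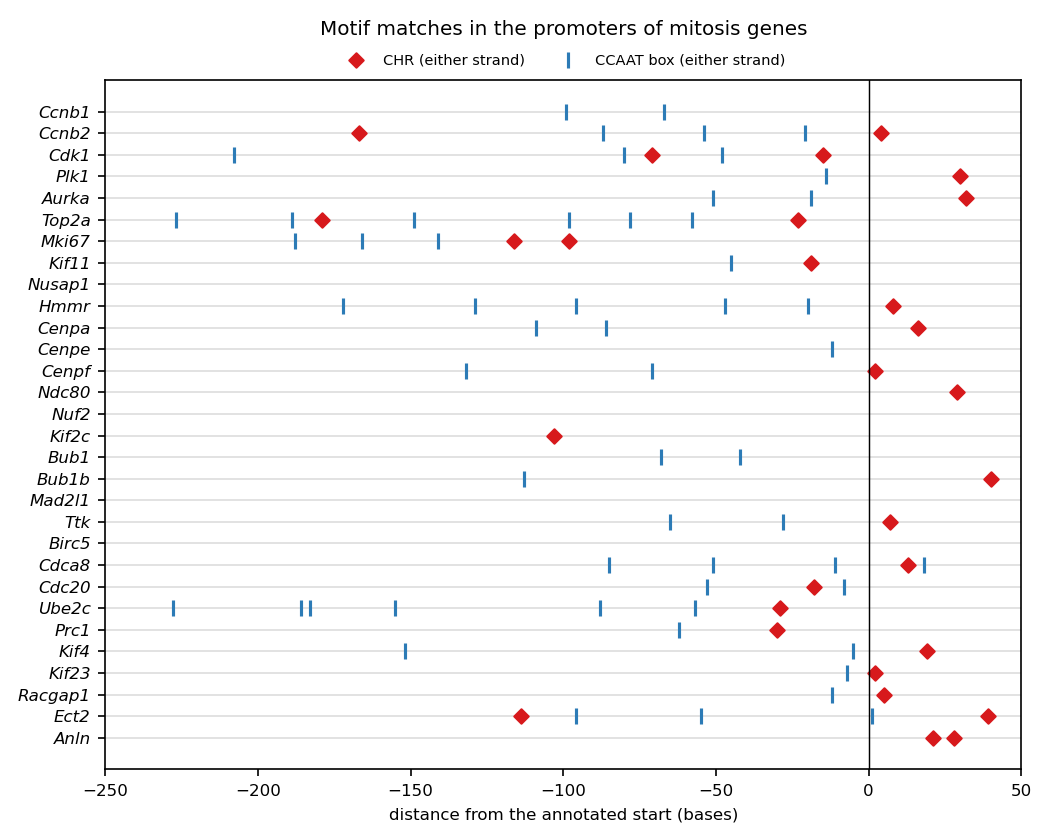
Positions of CHR (red diamonds) and CCAAT (blue bars) matches on either strand in the promoters of the 30 genes with a RefSeq promoter, in bases from the annotated start; where a gene has 2 starts, the start with more matches in the last 120 bases is drawn. Both motifs were found in 20 of the 30 genes, and Nusap1, Nuf2, Mad2l1 and Birc5 had neither.

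The mitosis genes were higher on the arrays of replicate 2 than on those of replicate 1 in both groups, and none was called between siErbB4 and siScr. Both replicate 2 arrays lay above both replicate 1 arrays at 36 of 36 genes, where 29.4% of all features did so. The median difference was 1.27 on the log2 scale (2.41-fold), ranging from 0.75 at Cdc20 to 1.66 at Ccna2, while the median over all features was 0.019. In limma's fit with terms for group and replicate number, 33 of the 36 genes were called higher in replicate 2 at an adjusted p under 0.05, and 0 were called lower; over all features 3.76% were called higher. Between siErbB4 and siScr 0 of the 36 were called, and 0% of all features, with a median difference of 0.15.

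The calls between the replicates depend on the filter and on single arrays. The differences stayed positive at all 36 genes under these alternatives, but this was fixed in advance. Both replicate 2 arrays lay above both replicate 1 arrays at each gene, and dropping the filter left the values unchanged. With no filter on dim probes 0 of the 36 genes and 0 features were called, at unchanged log2 differences and adjusted p of 0.276 to 0.323. In a fit with no group term, 36 of the 36 were called without siErbB4 replicate 1, and 0 without any 1 of the other three arrays.

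**Figure D2:**
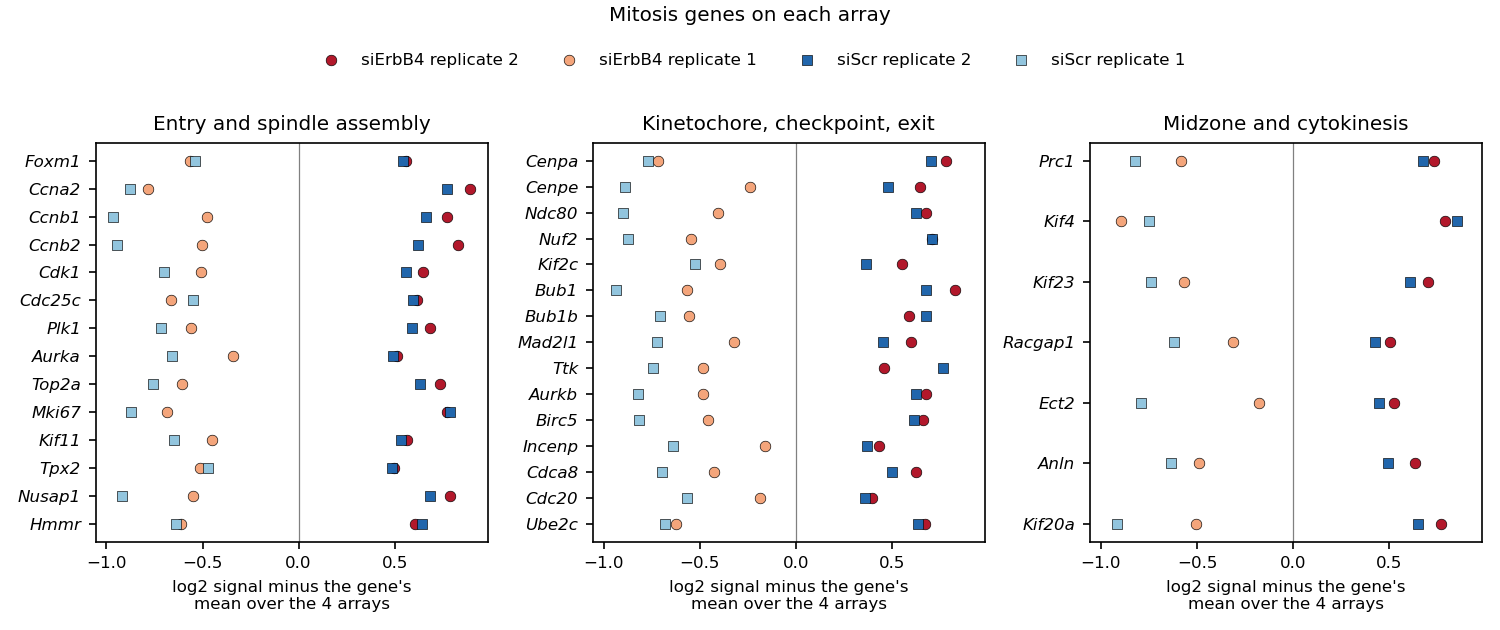
Log2 signal of the 36 tested mitosis genes on each array, as the difference from the gene's mean over the 4 arrays, by step. Circles are siErbB4 arrays and squares siScr arrays, dark for replicate 2 and pale for replicate 1; at each gene both dark points lie above 0 and both pale points below it.

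All 14 genes of mitotic entry and spindle assembly were called higher in replicate 2, with a median log2 difference of 1.26. Ccna2, which encodes cyclin A2, had processed signals of 3629 and 1143 on siErbB4 arrays 2 and 1, against 3133 and 1124 on siScr arrays 2 and 1. Its replicate 2 signal was 3.19-fold within siErbB4 and 3.14-fold within siScr of that of replicate 1. Ccna2 had the largest difference of the 36 genes, 1.66 (SE 0.11) on the log2 scale with an adjusted p of 0.0209. Ccnb1, which encodes the main mitotic cyclin, had 8199.6 and 3469 on siErbB4 arrays 2 and 1, against 7115 and 2592 on siScr arrays 2 and 1. Ccnb2, its close relative, had 7182 and 2869.8 on siErbB4 arrays 2 and 1, against 5838 and 2217 on siScr arrays 2 and 1. At both cyclins B the lowest array was siScr replicate 1, and the differences were 1.44 (SE 0.15) and 1.45 (SE 0.13). Cdk1, their kinase partner, had 2463 and 1115 on siErbB4 arrays 2 and 1, against 2168 and 1023 on siScr arrays 2 and 1, and its difference was 1.20 (SE 0.12). Cdc25c, a phosphatase that activates that kinase, had 204 and 84.3 on siErbB4 arrays 2 and 1, against 188 and 95.6 on siScr arrays 2 and 1, and differed by 1.21 (SE 0.12).

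The transcription factor that drives many of these genes was also higher on both replicate 2 arrays, but its lowest array was siErbB4 replicate 1. Foxm1 had processed signals of 554 and 256 on siErbB4 arrays 2 and 1, against 513 and 272 on siScr arrays 2 and 1, a difference of 1.10 (SE 0.11). Mki67, which encodes the chromosome-coating protein Ki-67 used to mark cycling cells, had 5646 and 2064 on siErbB4 arrays 2 and 1, against 5325 and 1901 on siScr arrays 2 and 1, a difference of 1.56 (SE 0.12). Top2a, the topoisomerase of chromosome condensation, had 2931 and 1163 on siErbB4 arrays 2 and 1, against 2549.8 and 1097 on siScr arrays 2 and 1, a difference of 1.37 (SE 0.11). In each of the 3 the siErbB4 and siScr arrays of 1 replicate number lay closer together than the arrays of 1 group.

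Plk1, the Polo kinase, differed by 1.28 (SE 0.11) and Aurka, the spindle pole Aurora kinase, by 1.00 (SE 0.13), a fold of 2.42 for Plk1 and 2.00 for Aurka. Tpx2, which activates Aurora A on the spindle, had 1133 and 566 on siErbB4 arrays 2 and 1, against 1053 and 611 on siScr arrays 2 and 1. Its difference of 0.98 (SE 0.11) was the smallest of this step. Kif11, the kinesin that pushes spindle poles apart, differed by 1.10 (SE 0.12). Nusap1, which binds and stabilises spindle microtubules, differed by 1.47 (SE 0.13), and Hmmr, a spindle assembly factor, by 1.25 (SE 0.11).

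Of the 15 tested genes of the kinetochore, checkpoint and exit, 13 were called higher in replicate 2, with a median of 1.27. Cenpa, the histone H3 variant that marks the centromere, had processed signals of 2337 and 834 on siErbB4 arrays 2 and 1, against 2073 and 842 on siScr arrays 2 and 1, a difference of 1.48 (SE 0.11). Cenpe, a kinesin that moves chromosomes to the spindle equator, had 4161 and 2273 on siErbB4 arrays 2 and 1, against 3479 and 1516 on siScr arrays 2 and 1. Its replicate 2 signal was 1.84-fold within siErbB4 and 2.58-fold within siScr of that of replicate 1, a larger fold on the siScr arrays in a contrast that could not be tested. Ndc80 and Nuf2 encode 2 subunits of the outer kinetochore complex that binds microtubules, and they differed by 1.30 (SE 0.16) and 1.42 (SE 0.14). Kif2c, a kinesin that takes microtubules apart at the centromere, differed by 0.92 (SE 0.11).

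The 4 checkpoint genes were called. Bub1, a kinetochore kinase, had 1096 and 418 on siErbB4 arrays 2 and 1, against 921 and 339.7 on siScr arrays 2 and 1, a difference of 1.51 (SE 0.12), the largest of this step. Bub1b, a subunit of the mitotic checkpoint complex, differed by 1.27 (SE 0.13), and Mad2l1, another subunit, by 1.05 (SE 0.13). Ttk, the kinase at the top of the checkpoint, had 97.1 and 50.9 on siErbB4 arrays 2 and 1, against 113 and 44.6 on siScr arrays 2 and 1. It had the largest SE of the 36 genes (0.18, beside a difference of 1.22), and it was no longer called when probes had to be well above background on any 2 arrays in place of both arrays of a group (adjusted p of 0.0518). Cenpe lost its call in the same way (adjusted p of 0.0517), and again without the group term (adjusted p of 0.0757).

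The chromosomal passenger complex, which corrects faulty attachments, is made of Aurkb, Birc5, Incenp and Cdca8. Aurkb, its kinase, had 54.6 and 24.5 on siErbB4 arrays 2 and 1, against 49.3 and 20.4 on siScr arrays 2 and 1, and was well above background on all 4 arrays. Its difference was 1.31 (SE 0.13). With normexp, another background correction, the difference at Aurkb was 0.46 (SE 0.12), so its size depends on how the background is handled. Birc5, which encodes survivin, had 19112 and 8833 on siErbB4 arrays 2 and 1, against 17315 and 7218 on siScr arrays 2 and 1, a difference of 1.28 (SE 0.14), and Cdca8, which encodes borealin, differed by 1.12 (SE 0.12). Incenp, the scaffold, had 7354 and 4919 on siErbB4 arrays 2 and 1, against 6590.3 and 3691 on siScr arrays 2 and 1. It was higher in replicate 2 on the arrays of both groups, by 0.80 (SE 0.15), and was not called (adjusted p of 0.0585).

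The exit genes gave 1 call of 2. Cdc20 had processed signals of 7389.7 and 4966 on siErbB4 arrays 2 and 1, against 6737 and 3994 on siScr arrays 2 and 1. Its difference of 0.75 (SE 0.14) was the smallest of the 36 genes and missed the threshold (adjusted p of 0.056). Ube2c had 6212 and 2546 on siErbB4 arrays 2 and 1, against 5666 and 2568 on siScr arrays 2 and 1, a difference of 1.30 (SE 0.11). Cenpf, the gene that did not pass the filter, was well above background on both replicate 2 arrays and on neither replicate 1 array, with 36.0 and 9.46 on siErbB4 arrays 2 and 1, against 26.9 and 9.38 on siScr arrays 2 and 1. Its fitted difference among 32388 unfiltered features was 1.81 (SE 0.16) with an adjusted p of 0.276.

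At the midzone and in cytokinesis 6 of 7 genes were called, with a median of 1.31. Kif4, a chromosome-bound kinesin that also shapes the midzone, had 403 and 126 on siErbB4 arrays 2 and 1, against 395 and 146 on siScr arrays 2 and 1, a difference of 1.64 (SE 0.12), the second largest of the 36. Prc1, the microtubule bundler that kinesin works with, had 3894 and 1573 on siErbB4 arrays 2 and 1, against 3497 and 1396 on siScr arrays 2 and 1, a difference of 1.41 (SE 0.12). Kif20a, a midzone kinesin, differed by 1.42 (SE 0.13). Kif23 and Racgap1 together form centralspindlin, which recruits the activator of RhoA. Kif23 differed by 1.31 (SE 0.12) and Racgap1 by 0.93 (SE 0.13), a fold of 2.48 for Kif23 and 1.91 for Racgap1.

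Ect2, the exchange factor that activates RhoA at the cleavage site, had processed signals of 1640.4 and 1015 on siErbB4 arrays 2 and 1, against 1454 and 696 on siScr arrays 2 and 1. Its replicate 2 signal was 1.63-fold within siErbB4 and 2.35-fold within siScr of that of replicate 1. The difference of 0.97 (SE 0.17) was not called (adjusted p of 0.0516). It was called in the limma fit in which each gene's probes were averaged (adjusted p of 0.0467). Ect2 had no other probe, so its own values and its difference were the same in that fit. Anln, which encodes the ring scaffold anillin, had 5332 and 2461 on siErbB4 arrays 2 and 1, against 4529 and 2331 on siScr arrays 2 and 1, a difference of 1.13 (SE 0.11). Its 2 groups gave nearly the same fold, 2.18-fold within siErbB4 and 2.19-fold within siScr.

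Among themselves the 36 genes varied little: the SD of their replicate differences was 0.23 on the log2 scale, beside 0.46 over all features. Over 131 other tested mitosis genes the SD was 0.54. The 36 genes were chosen with earlier results of these data known, so their small spread is a description and not a test. Within siErbB4, where 1 array stands against 1 and no test is possible, the median fold was 2.23 and 27 of 36 genes reached 2-fold, where 2.72% of all features did so. Within siScr the median fold was 2.56 and 33 of 36 reached 2-fold, where 3.27% of all features did so. The difference was larger in siScr at 29 of the 36, where 53.9% of all features were larger in siScr. With 4 arrays no residual degrees of freedom remain for this contrast between the groups, so it was not tested. By step, the median folds were 2.38 within siErbB4 and 2.45 within siScr for entry, 2.12 and 2.61 in the same order for the kinetochore, and 2.41 and 2.54 for cytokinesis.

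**Figure D3:**
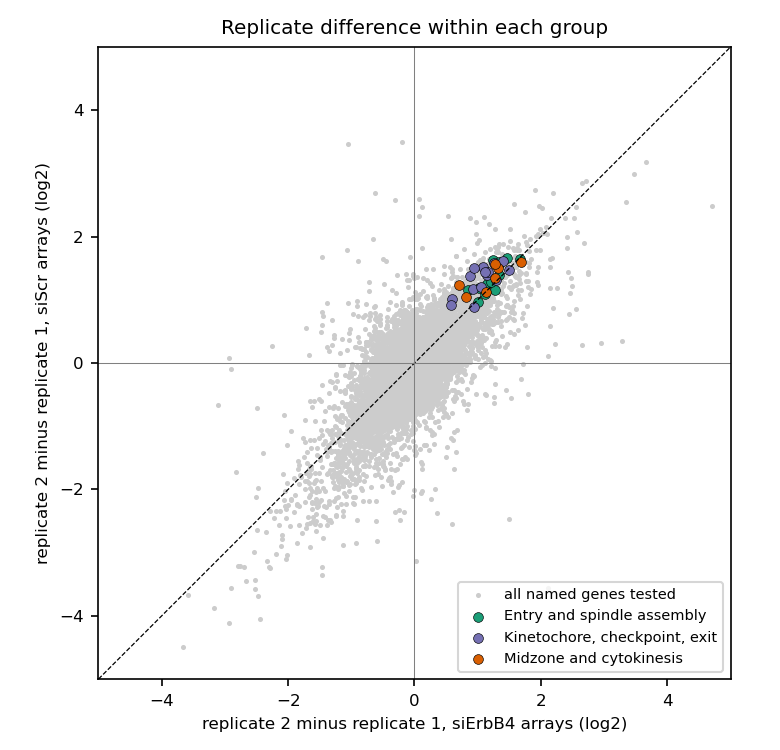
Log2 difference between replicate 2 and replicate 1 on the siErbB4 arrays (horizontal) and on the siScr arrays (vertical) for all named genes tested (grey) and the 36 mitosis genes (coloured by step), with the line of equal differences dashed. All 36 lie above 0 on both axes, and 29 lie above the dashed line.

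The replicate difference had the same sign at other probes of the same genes. Another 16 probes of 13 of the genes passed the filter, and their replicate differences ran from 0.79 to 1.78, within -0.25 to 0.36 of the probe used. Set beside the promoter motifs, the median difference was 1.26 in genes with TTTGAA and 1.42 in the 7 tested genes without, and 1.27 in genes with CCAAT and 1.28 in the 7 without. Of the 4 genes with neither motif, Nusap1 differed by 1.47, Nuf2 by 1.42, Mad2l1 by 1.05 and Birc5 by 1.28.

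The comparison the study was designed for, siErbB4 against siScr, gave no call at any mitosis gene. The differences ran from -0.11 at Kif4 to 0.41 at Cenpe, with a median of 0.15 beside -0.014 over all features. Of the 36 differences 30 were positive and 6 negative, where 9773 of all features were positive and 10953 negative. The 36 values come from the same 4 arrays, so their signs are not separate tests. The groups overlapped at 36 of 36 genes, where 29% of all features showed no overlap. With 2 samples against 2, an exact permutation test of a single gene cannot give a p below 0.333. The lowest unadjusted p of limma's test among the 36 was 0.524, and 365 of all features had an unadjusted p under 0.05.

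The entry genes had a median of 0.12 between the groups. Ccnb2 differed by 0.32 (SE 0.73, 95% interval -1.70 to 2.35) and Ccnb1 by 0.30 (SE 0.73, 95% interval -1.72 to 2.32). Cdk1 differed by 0.14 (SE 0.61, 95% interval -1.55 to 1.83), Mki67 by 0.087 (SE 0.79, 95% interval -2.08 to 2.26) and Foxm1 by -0.0028 (SE 0.56, 95% interval -1.56 to 1.55). In this fit, which has no term for the replicate number and so counts the replicate difference as spread, each of the 5 intervals covers 0 and extends past a 2-fold change in both directions. Tpx2, Cdc25c, Hmmr and Foxm1 were the entry genes with a value below 0.

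The kinetochore genes had a median of 0.20. Cenpe, with the largest difference of the 36, differed by 0.41 (SE 0.59, 95% interval -1.21 to 2.02). Its difference was 0.16 within replicate 2 and 0.65 within replicate 1. Bub1 differed by 0.26 (SE 0.76, 95% interval -1.84 to 2.36) and Aurkb by 0.19 (SE 0.66, 95% interval -1.64 to 2.03). Ttk was the tested gene of this step with a value below 0, and its difference was -0.31 within replicate 2 and 0.26 within replicate 1.

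The cytokinesis genes had a median of 0.15. Ect2 differed by 0.34 (SE 0.51, 95% interval -1.07 to 1.76), which was 0.079 within replicate 2 and 0.61 within replicate 1. Anln differed by 0.14 (SE 0.57, 95% interval -1.44 to 1.73). Kif4 differed by -0.11 (SE 0.83, 95% interval -2.39 to 2.17). After scaling it lay below siScr at both replicate numbers, alone among the 36, by -0.066 within replicate 2 and -0.15 within replicate 1.

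Matched by replicate number, siErbB4 lay above siScr in both pairs at 28 of the 36 genes, where 28% of all features did so. The median difference was 0.070 within replicate 2 (range -0.31 to 0.20) and 0.25 within replicate 1 (range -0.15 to 0.65). Leaving out 1 array leaves a group with 1 replicate number, so that part of the replicate difference enters the difference between the groups by construction. The median then was -0.43 without siErbB4 replicate 2, 0.74 without siErbB4 replicate 1, 0.80 without siScr replicate 2 and -0.52 without siScr replicate 1, values that do not bear on the matched differences above. Marker lists of other cells also differed in sign between the groups, with 0 genes called. Over all 20726 features, 9773 were above siScr and 10953 below. Of fibroblast markers 21 of 22 were below siScr (median difference -0.47, with -0.15 within replicate 2 and -0.81 within replicate 1). Of pluripotency markers 21 of 23 were above siScr (median 0.42, with 0.11 within replicate 2 and 0.72 within replicate 1). Of cardiomyocyte markers 18 of 24 were below siScr (median -0.066, with -0.085 within replicate 2 and -0.028 within replicate 1). For the fibroblast and pluripotency lists the median was larger in size in the replicate 1 pair of arrays. The part of these markers in the group differences at the mitosis genes was not tested.

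**Figure D4:**
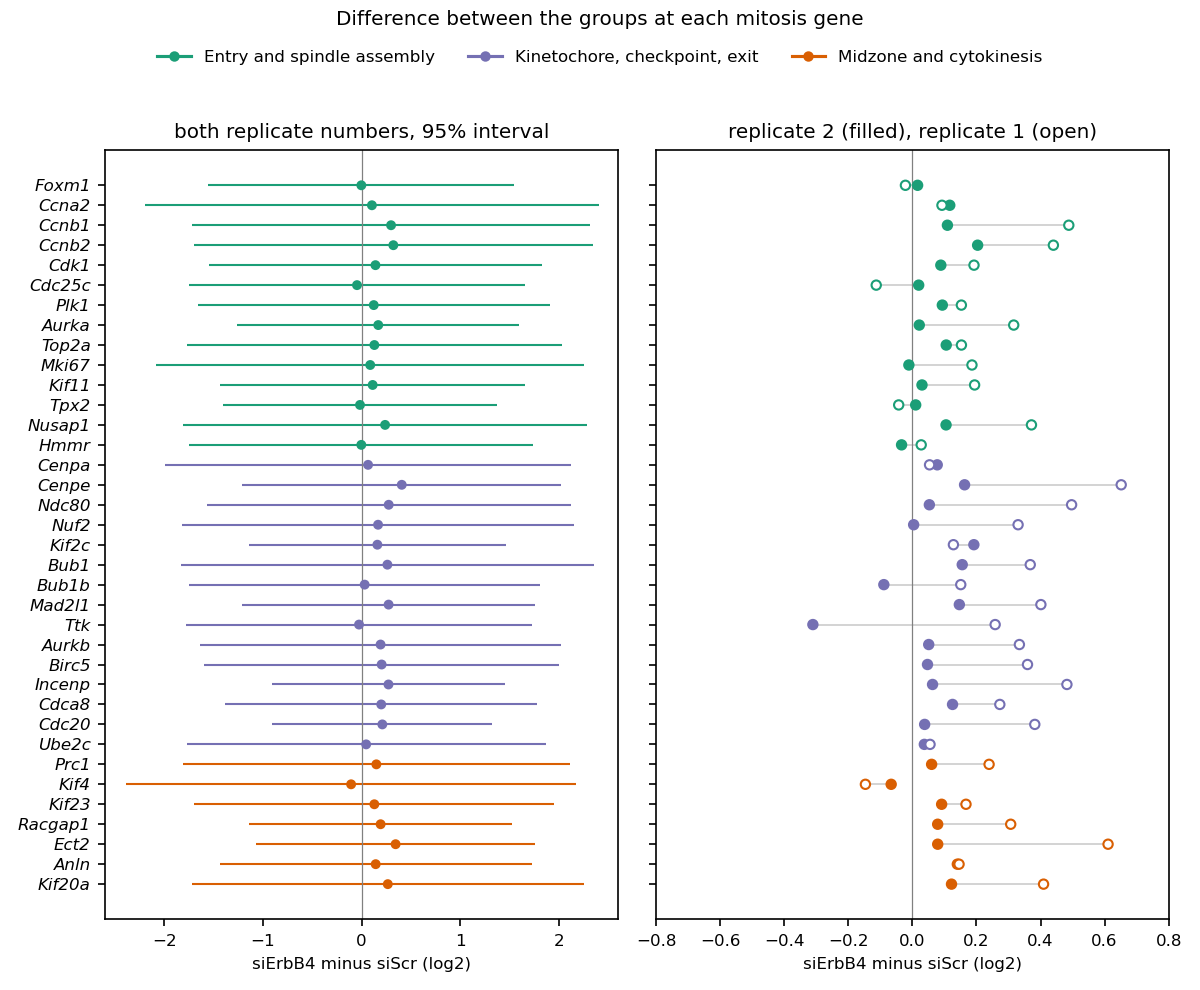
Log2 difference between siErbB4 and siScr at the 36 mitosis genes, coloured by step; the left panel gives limma's estimate with its 95% interval over all 4 arrays, the right panel the difference within replicate 2 (filled) and within replicate 1 (open). All intervals cover 0, and the open points reach 0.65 while the filled points stay between -0.31 and 0.20.

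Other genes of the pathway were set beside these from a list of 144 further mitosis genes, of which 131 were tested. Their median replicate difference was 0.57, and 55 were called higher and 1 lower in replicate 2. Of the 46 tested entry genes 25 were called higher and 0 lower, among them Ncapg, a condensin subunit, with a difference of 1.53 (SE 0.12), Ckap2l, a mitotic spindle protein, with 1.58 (SE 0.12), and Cdc25b, a phosphatase of the cyclin-dependent kinases, with 1.43 (SE 0.12). Of the 58 tested kinetochore genes 25 were called higher and 0 lower. Spag5, a spindle and kinetochore protein, differed by 1.49 (SE 0.12), Kntc1, a checkpoint subunit, by 1.46 (SE 0.12), and Pttg1, which encodes securin, the inhibitor of separase, by 1.45 (SE 0.12). Of the 28 tested cytokinesis genes 6 were called higher and 1 lower, with a median of 0.054. Iqgap3 differed by 1.49 (SE 0.12), Shcbp1 by 1.51 (SE 0.14) and Espl1, which encodes separase and is also on the kinetochore list, by 1.06 (SE 0.11).

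Between siErbB4 and siScr 0 of the 131 were called, and their median difference was 0.11. The ranking below is from limma's fit with no term for the replicate number, which counts the replicate difference as spread. It thus favours genes with a small replicate difference and depends on the fit. With the replicate number as a block, Shcbp1 differed by 0.39 (95% interval 0.022 to 0.75, adjusted p of 0.641). The genes with the lowest p in each step were Mybl2, a cell cycle transcription factor, at 0.27 (SE 0.18, 95% interval -0.23 to 0.77), Gtse1 at 0.26 (SE 0.17, 95% interval -0.23 to 0.74), Anapc1, a subunit of the anaphase-promoting complex, at 0.29 (SE 0.15, 95% interval -0.11 to 0.70), Cenpt, a centromere protein, at -0.25 (SE 0.15, 95% interval -0.67 to 0.16), Exoc8, an exocyst subunit, at 0.22 (SE 0.15, 95% interval -0.20 to 0.63), and Rock2, a kinase downstream of RhoA, at -0.18 (SE 0.13, 95% interval -0.54 to 0.18).

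Of 46 tested DNA replication genes 17 were called higher in replicate 2 and 0 lower, with a median difference of 0.67. Rrm2, a ribonucleotide reductase subunit, differed by 1.68 (SE 0.12), Tk1, thymidine kinase, by 1.34 (SE 0.11) and Gins1, a helicase subunit, by 1.09 (SE 0.12). Of 25 tested G1 control genes 6 were called higher and 3 lower, with a median of 0.16. Cdkn3, a phosphatase that acts on cyclin-dependent kinases, differed by 1.72 (SE 0.12), and 2 inhibitors of the G1 kinases differed in opposite directions, Cdkn2c by 1.92 (SE 0.17) and Cdkn2b by -1.55 (SE 0.17). Cdkn2b had processed signals of 756 and 1871 on siErbB4 arrays 2 and 1, against 714 and 2808 on siScr arrays 2 and 1, so both replicate 1 arrays were the higher ones. Between siErbB4 and siScr 0 genes of both lists were called. In the fit with no term for the replicate number, the replication genes with the lowest p were Gins3 at -0.17 (SE 0.13, 95% interval -0.54 to 0.20) and Orc1 at 0.29 (SE 0.23, 95% interval -0.34 to 0.92). Among G1 genes they were E2f3 at 0.20 (SE 0.14, 95% interval -0.18 to 0.58) and Ccnd2, which encodes cyclin D2, at -0.24 (SE 0.20, 95% interval -0.78 to 0.30).

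**Figure D5:**
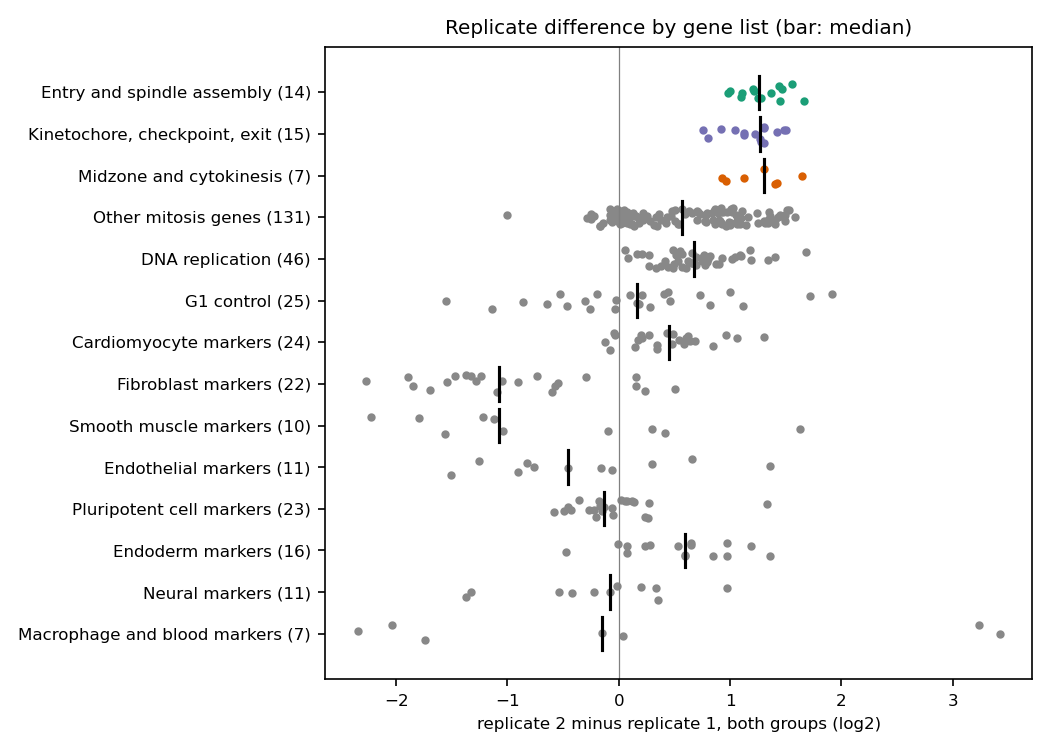
Log2 difference between replicate 2 and replicate 1, over both groups, at each tested gene of 14 lists, with the number of genes in brackets and a bar at the median. The 3 mitosis steps have medians of 1.26, 1.27 and 1.31, other mitosis genes 0.57, DNA replication 0.67, and fibroblast and smooth muscle markers lie mostly below 0, with medians of -1.07 and -1.08.

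Markers of some other cell types moved with the replicate number as well. Over all 20726 features, 780 were called higher and 736 lower in replicate 2. The median replicate difference was -1.07 for fibroblast, -1.08 for smooth muscle and -0.46 for endothelial markers, and 0.59 for endoderm and 0.45 for cardiomyocyte markers. It was -0.13 for pluripotency markers, -0.077 for neural markers and -0.15 for macrophage and blood markers, beside 0.019 over all features. The 7 tested macrophage and blood markers ranged from -2.35 to 3.42. In these bulk samples fewer cells of a type and less RNA per cell cannot be told apart. The summed scaled signal of the 36 mitosis genes, each gene as a multiple of the array's 75th percentile, was 134 and 62.9 on siErbB4 arrays 2 and 1, against 127 and 50.9 on siScr arrays 2 and 1. That of 22 tested fibroblast markers was 261 and 313 on siErbB4 arrays 2 and 1, against 311 and 337 on siScr arrays 2 and 1, with 10 called lower and 0 higher in replicate 2. Col1a1, the main collagen of fibroblasts, had processed signals of 3099 and 14257 on siErbB4 arrays 2 and 1, against 4102 and 23422 on siScr arrays 2 and 1, a difference of -2.27 (SE 0.12). Col1a2 differed by -1.37 (SE 0.22) and Col3a1 by -1.70 (SE 0.28). Of the defining fibroblast markers Fap was below background on all 4 arrays.

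The summed signal of 10 tested smooth muscle markers was 251 and 442 on siErbB4 arrays 2 and 1, against 259.7 and 552 on siScr arrays 2 and 1, with 5 called lower and 0 higher. Acta2, smooth muscle actin, differed by -1.22 (SE 0.14), Tagln by -1.04 (SE 0.12) and Cnn1 by -0.10 (SE 0.18). The summed signal of 24 cardiomyocyte markers was 2979 and 2313 on siErbB4 arrays 2 and 1, against 3238 and 2397 on siScr arrays 2 and 1, with a median difference of 0.45, 5 called higher and 0 lower. Tnnt2 differed by -0.076 (SE 0.13), Tnni1 by 0.43 (SE 0.14) and Tnni3 by 0.97 (SE 0.12).

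Of 11 tested endothelial markers 1 was called higher and 2 lower (summed signal 5.44 and 4.64 on siErbB4 arrays 2 and 1, against 6.15 and 4.70 on siScr arrays 2 and 1), with Emcn and Erg below background. Pecam1 differed by -0.062 (SE 0.12), Cdh5 by -1.51 (SE 0.21) and Kdr by 0.30 (SE 0.15). Of 23 pluripotency markers 1 was called higher and 0 lower (summed signal 49.2 and 59.3 on siErbB4 arrays 2 and 1, against 46.5 and 38.0 on siScr arrays 2 and 1), and siErbB4 array 1 had the highest sum. Pou5f1 had processed signals of 344 and 953 on siErbB4 arrays 2 and 1, against 348 and 258 on siScr arrays 2 and 1, and Sox2 had 188 and 278 on siErbB4 arrays 2 and 1, against 168 and 139.7 on siScr arrays 2 and 1. Both were highest on siErbB4 array 1, while Nanog had 594 and 516 on siErbB4 arrays 2 and 1, against 617 and 582 on siScr arrays 2 and 1. Of 16 tested endoderm markers 5 were called higher and 0 lower (summed signal 80.5 and 71.7 on siErbB4 arrays 2 and 1, against 73.3 and 61.3 on siScr arrays 2 and 1), with Apoa1 and Apoa4 below background; Sox17 is on this list and on the endothelial one. Afp differed by 0.65 (SE 0.12) and Ttr by 0.97 (SE 0.14). Of 11 tested neural markers 2 were called lower and 0 higher (summed signal 13.8 and 20.4 on siErbB4 arrays 2 and 1, against 16.0 and 27.6 on siScr arrays 2 and 1), with Map2 and Dcx below background. Tubb3 differed by -1.33 (SE 0.12) and Nes by -0.077 (SE 0.17). Of 7 tested macrophage and blood markers 2 were called higher and 1 lower (summed signal 11.1 and 7.36 on siErbB4 arrays 2 and 1, against 12.5 and 8.40 on siScr arrays 2 and 1), with Mrc1 and Hbb-bt below background. Itgam differed by -0.15 (SE 0.12) and Adgre1 by -2.35 (SE 0.44). The part of these markers in the replicate difference at the mitosis genes was not tested.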

How the data were processed

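Total RNA of 4 samples was measured on Agilent 1-colour (Cy3) arrays. The submitters' processing notes name Agilent Feature Extraction 10.7.1.1. The deposited processed intensity of each spot is background-subtracted, per the file headers, and not scaled between arrays. The values in the table deposited by the authors are log2 values. They matched log2 processed signals from which the array's 75th percentile had been taken away (correlation 1, largest difference 0.00291, column medians -3.86, -3.83, -3.83 and -3.81 for siErbB4 2, siErbB4 1, siScr 2 and siScr 1).

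Control spots (1377 of 44397) and outlier-flagged spots were left out, spots of a probe were averaged, and each log2 signal was scaled in that way. Through unversioned RefSeq accessions in a table of assembly GRCm38.p6, 27498 of 39429 probes were named; the array's own annotation names another build, so no coordinates are given for probes, and those of the promoters are RefSeq's on GRCm38.p6. A probe was kept if both arrays of 1 group or of each group showed it well above background (25690), and the brightest probe stood for a gene. The fits used limma 3.58.1 (lmFit and eBayes, two-sided) in R 4.3.3 over 20726 features, adjusted by Benjamini-Hochberg and called under 0.05. One fit had the group alone and the other the group and the replicate number, with 1 residual degree of freedom. The fits were tested on simulated data. For the group fit these data held no replicate difference, unlike the arrays, so they do not show how that fit behaves here. The number of arrays limits the precision.

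The members and lists were chosen with earlier results of these data known. All tested members are named. From each other list of cell cycle genes the 3 with the lowest p between replicates and the 2 with the lowest p between groups are named, and of each marker list those tested among the first 3 and those below background on all arrays, apart from an item not reported here. Alternatives were normexp correction, quantile normalization, no filter, a mean over probes, the authors' value table, the replicate number as a block, no group term, and leaving out each array.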

Additional observations from a re-analysis of the deposited data

How the results depend on the processing

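Between siErbB4 and siScr 0 features and 0 mitosis genes were called under each alternative run. The median difference of the 36 genes lay between -0.52 and 0.80 when 1 array was left out, with the lone array assumed to vary like the others. Such a fit sets unequal replicate numbers against each other, so this swing is built in and does not test the stability of the group difference; the same holds for the ranges per gene below. It was 0.14 to 0.16 under the other alternatives. Foxm1 moved to 0.017 with normexp correction, 0.017 with quantile normalization and 0.11 with the mean of its probes. Leaving out 1 array in turn gave differences of -0.56 to 0.56 for Foxm1, -0.52 to 1.11 for Ccnb1, -0.46 to 1.11 for Ccnb2, -0.49 to 0.77 for Cdk1 and -0.74 to 0.92 for Mki67. At the kinetochore they were -0.28 to 1.09 for Cenpe, -0.53 to 0.92 for Aurkb and -0.54 to 1.07 for Bub1, and in cytokinesis -0.95 to 0.74 for Kif4, -0.27 to 0.96 for Ect2 and -0.42 to 0.71 for Anln. Between the replicates, normexp correction gave 2882 features and 36 mitosis genes called at a median of 1.09. The differences then ran from 0.46 at Aurkb to 1.61 at Ccna2, with 0.63 at Ttk. Quantile normalization, the mean over probes, the authors' value table and no group term gave 32 to 34 of the 36 called. With no filter 0 features and 0 mitosis genes were called; the cause was not tested. The next 2 alternatives were chosen after seeing the data. With probes well above background on any 2 arrays, 1171 features and 32 of 37 mitosis genes, Cenpf included, were called. Cenpf passed that filter only through the replicate 2 arrays, where it was higher, so its call is no separate support. Of the other 36 genes 31 were called. With 1 array left out and no group term, 0 to 1539 features and 0 to 36 mitosis genes were called, with 72 features without siErbB4 replicate 2.

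In the fit that had the replicate number as a block, 0 features and 0 mitosis genes were called between the groups, the median stayed 0.15, the median SE of the 36 was 0.12 in place of 0.64, and the lowest p was 0.0604 (adjusted 0.641, at Ccnb2). The 95% intervals then were -0.022 to 0.67 for Ccnb2, -0.095 to 0.69 for Ccnb1, -0.17 to 0.46 for Cdk1, -0.25 to 0.42 for Mki67 and -0.31 to 0.31 for Foxm1. Deviations from the group means correlated at 0.679 across features between arrays of 1 number, and the labels do not say that a number marks a shared culture or day. The number of arrays and 1 residual degree of freedom limit all calls between the replicates.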
